A study of Phyllostachys violascens with 6 samples.

Results

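Cluster-4806.42073, 1 of 63776 unigenes in the table of deposited counts, was nearly absent from the green sulcus and present in the yellow culm of the bamboo Phyllostachys violascens cv. Viridisulcata. The annotation table of the study matches it to a FAR1-RELATED SEQUENCE 5-like (FRS5-like) protein of the goat grass Aegilops tauschii and to FRS5 of Arabidopsis, and gives it domains of Mutator-family transposases and of aflatoxin regulatory proteins. It was taken by its identifier, and it had been picked because of its difference between sulcus and culm in these same libraries. That difference is therefore described here and not tested. RNA was taken from the longest internodes of wild type plants of this 1 cultivar, untreated, separately from the green groove (sulcus) and from the yellow culm, and 3 libraries were made of each tissue. Reads were assembled without a reference genome, so the unigene has no chromosome position, exon structure or strand. Column totals lay between 16405396 and 19434666 counts in sulcus and between 18875469 and 22505338 in culm.

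FAR1 and its relative FHY3 are transcription factors that arose from transposases of Mutator-like elements. In Arabidopsis they act in far-red light signalling downstream of the photoreceptor phytochrome A, where they switch on FHY1 and FHL, the proteins that carry phytochrome A into the nucleus. The FAR1-RELATED SEQUENCE proteins are the other members of this family.

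The unigene had 3, 6 and 5 reads in sulcus replicates 1, 2 and 3. In culm replicates 1, 2 and 3 it had 91, 74 and 74 reads. All 3 culm libraries stood far above all 3 sulcus libraries, and 94.5% of its reads came from the culm. All 6 counts were whole numbers, as were those of 58.6% of the unigenes kept after the filter on low counts, and how reads that fit several unigenes were counted is not known. Scaled to CPM, the count divided by the column total and multiplied by 1000000, its level was 0.183, 0.309 and 0.270 in sulcus and 4.82, 3.71 and 3.29 in culm. The means were 0.254 ± 0.0645 CPM in sulcus and 3.94 ± 0.792 CPM in culm (SD, n = 3 each), which is 15.5 times as high in the culm. The lowest culm library was 10.7 times the highest sulcus library. Culm values lay wholly above sulcus values for 786 of 31936 unigenes, or 2.46%. In RNA from whole tissue, fewer cells that express the unigene and less RNA of it per cell cannot be told apart.

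**Figure D1:**
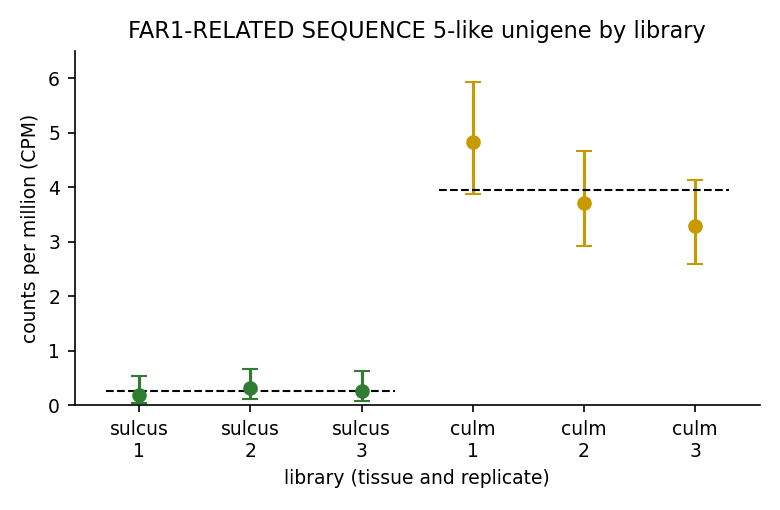
Level of the FRS5-like unigene in CPM (vertical axis) in each of the 6 libraries (horizontal axis), with exact 95% Poisson intervals as bars and the tissue mean as a dashed line. The 3 sulcus libraries sit between 0.183 and 0.309 CPM and the 3 culm libraries between 3.29 and 4.82 CPM.

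The sulcus values rest on few reads. The exact 95% Poisson interval ran from 0.0377 to 0.534 CPM in sulcus replicate 1, from 0.113 to 0.672 in replicate 2 and from 0.0877 to 0.630 in replicate 3. These intervals overlapped one another. In culm the intervals were 3.88 to 5.92 CPM, 2.91 to 4.66 CPM and 2.58 to 4.13 CPM for replicates 1 to 3. All these intervals cover counting error only and leave out variation between libraries. Reads from amplified libraries are not independent molecules, so the counting error itself may be larger.

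Sulcus and culm libraries carry replicate numbers, and those with the same number deviated together across all unigenes. The ratio of culm to sulcus CPM within such a pair was 26.4 in pair 1 (exact 95% interval for counting error 8.74 to 130.2). It was 12.02 in pair 2 (5.27 to 33.8) and 12.2 in pair 3 (4.99 to 38.6). The ratio of pair 1 was the highest, and it joined the lowest sulcus count with the highest culm count. The 3 intervals overlapped, so the pairs were not separated by their counts. Summed over replicates, 14 sulcus reads stood against 239 culm reads, a ratio of 15.1 per total count (exact 95% interval for counting error 8.84 to 28.1). That interval pools the reads and leaves out the variation between libraries.

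Among all unigenes, this one had the highest value of its smallest pair ratio. With 1 read added to each count, so that unigenes with a count of 0 could be ranked, its ratios were 19.99, 10.4 and 10.3, and the smallest was 10.3. It ranked 1 of 31936 unigenes kept after the filter, and it was the only one to reach 8 in this direction (0.00313%). Second came Cluster-4806.2229 with 6.82, a unigene without a match in the annotation table, and after it Cluster-4806.44952 with 3.76, also without a match. A smallest ratio of 4 was reached by 2 unigenes (0.00626%) and one of 2 by 41 (0.128%). Merely being higher in culm in all 3 pairs was common, with 5035 unigenes (15.8%). In the other direction, higher in the sulcus, 2 unigenes reached 8 (0.00626%) and 9 reached 4 (0.0282%). The first of these were plastid unigenes, psbM (Cluster-4806.18675) with 10.5 and rpl33 (Cluster-4806.44625) with 9.47. The rank rests on replicate 2 in part. Without pair 2, Cluster-4806.2229 (22.6) and Cluster-4806.43786 (20.9) had larger smallest ratios and the FRS5-like unigene ranked 3.

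**Figure D2:**
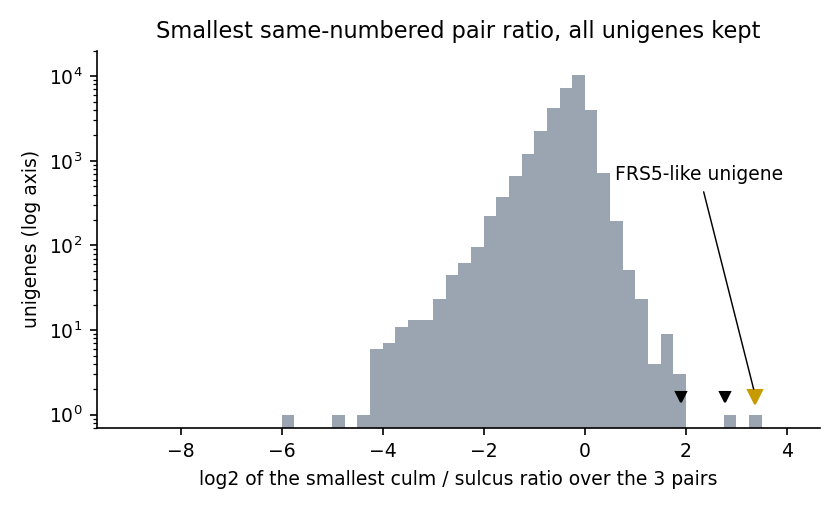
Number of unigenes (vertical axis, log scale) by the log2 of their smallest culm to sulcus ratio over the 3 same-numbered pairs (horizontal axis), for the 31936 unigenes kept and with 1 read added to each count. The gold triangle marks the FRS5-like unigene at a ratio of 10.3, and the black triangles mark the unigenes ranked after it, at 6.82 and 3.76.

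The spread within a tissue is a description too, since a unigene with 1 high sulcus or 1 low culm library would have ranked lower by its smallest pair ratio. The coefficient of variation of its CPM was 25.4% in sulcus and 20.1% in culm. In culm the highest library was 1.47 times the lowest, and in sulcus 1.69 times. The variance within sulcus was 0.282 of what counting error alone gives, and within culm 3.23 times that. Of 4739 unigenes kept with a mean culm count within 1.5 times its own, 32.4% had a lower coefficient of variation in culm, and the median of that group was 27.9%. In sulcus only 153 unigenes kept had a like mean count, since the filter keeps such a unigene only where culm is high, and 5.23% of them had a lower coefficient. Over all 7895 unigenes of the table with a like sulcus count the share was 11.6%.

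On the log2 scale, replicates 1 to 3 of the sulcus deviated from their mean by −0.32, 0.24 and 0.086, and those of the culm by 0.31, −0.066 and −0.24. The deviations had opposite signs in the tissues for every number, whereas same-numbered libraries deviated in the same direction across unigenes as a whole (r across unigenes 0.713, 0.620 and 0.798). The sulcus deviations rest on 3, 6 and 5 reads, whose variance was 0.282 of what counting error alone gives. Nothing is therefore read from their signs.

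In the edgeR fit across all unigenes its log2 fold change, culm minus sulcus, was 3.92 (standard error 0.35), a fold of 15.1. Only Cluster-4806.2229 had a larger one toward the culm, 4.59 (standard error 0.68), from 0, 3 and 1 reads in sulcus and 37, 27 and 54.01 in culm. The median over all unigenes was 0.0058. The sulcus counts of both were under the minimum of 10 reads, so both passed the filter only through the culm. Calls needed an adjusted p below 0.05 and at least a doubling or halving. By these limits edgeR called 0 of 31936 unigenes higher and 0 lower in culm, while 108 (0.338%) and 83 (0.26%) had an unadjusted p under 0.05 with that fold. That fit had no term for replicate number, so deviations shared by same-numbered libraries stayed in its error. Adding replicate number to the edgeR model as a block gave 22 higher (0.0689%) and 19 lower (0.0595%). The common biological coefficient of variation was 0.403 without the block and 0.146 with it. The FRS5-like unigene was among the 22, at a log2 value of 3.89 ± 0.35 (standard error). DESeq2, which gave an adjusted p to 54642 unigenes, called 7 higher (0.0128%) and 16 lower (0.0293%). DESeq2 with the block, over 27791 unigenes, called 65 (0.234%) and 30 (0.108%), and limma voom called 0. Both DESeq2 fits had this unigene among those higher, and their shares are over other totals than those of edgeR. Nothing is read from these calls, since the unigene was chosen on this same difference. Leaving out each library in turn gave log2 fold changes from 3.75 to 4.07, and no single library decided the value.

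**Figure D3:**
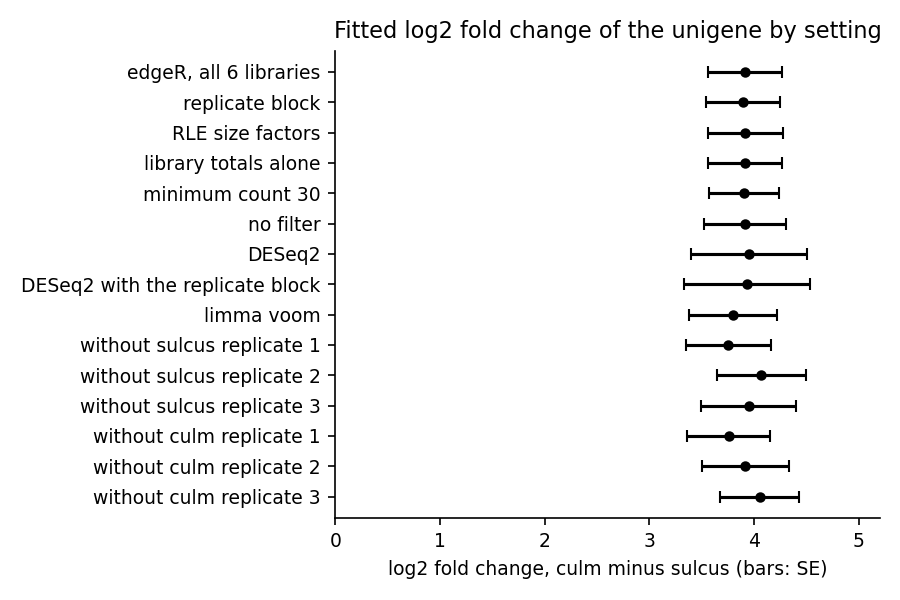
Log2 fold change of the FRS5-like unigene, culm minus sulcus (horizontal axis, bars are standard errors), in the edgeR fit of all 6 libraries and in each alternative fit (vertical axis). Every value lies between 3.75 and 4.07, all within 1 standard error (0.35) of the 3.92 from all libraries.

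The unigenes with the most similar profile over the 6 libraries were found by the Euclidean distance between log2 CPM profiles, each centred on its own mean. The median distance of the 31935 others was 4.65, and 3 of them lay under 2. Cluster-4806.2229 was nearest (distance 1.24). Next were Cluster-4806.43786 (1.75), which had 1, 10 and 1 reads in sulcus and 47, 35 and 61 in culm, and Cluster-4806.2492 (1.89), matched to a heme-binding-like protein of the chloroplast. Cluster-4806.2492 had 11, 34 and 45 reads in sulcus and 402, 100 and 276 in culm, so that its culm libraries differed by up to 4.25 times in CPM where those of the FRS5-like unigene differed by 1.47 times. Cluster-4806.44952 (2.01) had 4, 3 and 13 reads in sulcus and 38, 43 and 63 in culm. Cluster-4806.2212 (2.05), matched to WRKY53, a transcription factor of leaf senescence in Arabidopsis, had 4, 5 and 5 in sulcus and 34, 35 and 17 in culm. All 5 were higher in culm in each pair, as were 15.8% of all unigenes, with smallest pair ratios between 2.47 and 6.82. They were picked for likeness to a unigene chosen as higher in culm, so this was built in. All but Cluster-4806.2492 had few reads in sulcus and passed the filter only through the culm.

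The nearest profiles of the opposite kind came closer. The nearest to the mirrored profile was rpl33 (Cluster-4806.44625), a plastid ribosomal protein, at a distance of 0.791, with 367, 412 and 513 reads in sulcus and 38, 33 and 65 in culm. It was followed by Cluster-4806.21439 (1.19), whose only match in the annotation table is to a chloroplast genome, with 9, 14 and 13 reads in sulcus and 0, 1 and 0 in culm. Next was psbK (Cluster-4806.20182, 1.40), a small subunit of photosystem II, with 289, 273 and 232 reads in sulcus and 35, 39 and 78 in culm. In all, 12 unigenes lay under a distance of 2 from the mirrored profile, against 3 from the profile itself. Under a distance of 3 the numbers were close, 40 and 36. The log2 fold change of rpl33 was −3.44 (standard error 0.25, adjusted p = 0.0709 from edgeR and 8.14e-05 with the replicate block) and that of psbK −2.61 (standard error 0.30, adjusted p = 0.369 from edgeR and 0.00997 with the replicate block). Both were picked for mirroring a unigene chosen on this same contrast, so a difference between the tissues was built in. Their p-values are given as a description only.

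**Figure D4:**
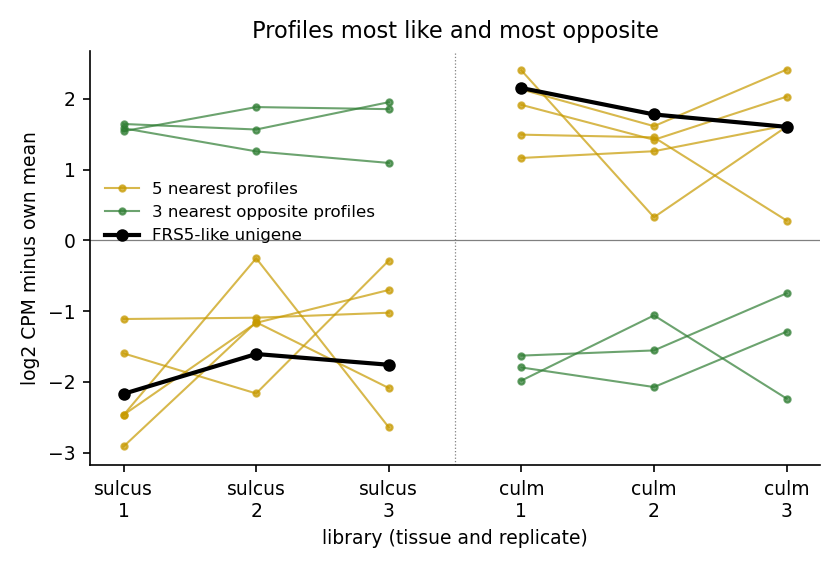
Log2 CPM minus each unigene's own mean (vertical axis, 1 read added to each count) in the 6 libraries (horizontal axis) for the FRS5-like unigene in black, the 5 nearest profiles in gold and the 3 nearest to its mirror image in green. Lines join libraries of 1 tissue for reading only, and the mirrored profile of rpl33 runs closest, at a distance of 0.791.

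Photosynthesis transcripts were set beside the labels green and yellow. The labels and most of the study's text call the sulcus green and the culm yellow, but 1 passage of its results gives the colours, and the pigment contents, the other way round, and the labels are followed here. All 12 unigenes that the study's pathway table lists under photosynthesis and antenna proteins had a negative log2 fold change, from −3.67 to −1.003 with a median of −1.89. By edgeR 0 of them had an adjusted p under 0.05 and 12 were below −1 with an unadjusted p under 0.05, beside 0.26% of all unigenes. With the replicate block edgeR called 5 of 12 (0.0595% of all unigenes), Cluster-4806.17399, Cluster-4806.16767, psbM, psbK and Cluster-4806.26001, and DESeq2 called 6 (0.0293% of those it tested). The study had picked these unigenes for their difference in these libraries, so the counts are no independent check of the labels. The libraries labelled green sulcus thus had the higher fitted levels of all 12. Whether the low level of these transcripts has a part in the difference of the FRS5-like unigene was not tested.

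Of other unigenes matched to light signalling or to a response to light, none was called by edgeR without the replicate block. All had a positive log2 fold change. The annotation table of the study, which holds unigenes it picked on these libraries, gives 5 with such a match. They are HY5, the bZIP factor that promotes light-grown development, BBX21 and BBX20, B-box proteins that work with HY5 in Arabidopsis, PHOT2, a blue light receptor kinase, and HLIP, a high-light-induced protein of the chloroplast. All 5 were tested. Their log2 fold changes lay between 1.02 for PHOT2 and 1.54 for HY5, with a median of 1.24 beside 0.0058 over all unigenes and 3.92 for the FRS5-like unigene. By edgeR 0 of 5 were called (adjusted p = 0.99998 for each). In the same fit 4 had an unadjusted p under 0.05 with a log2 fold change over 1, beside 0.338% of all unigenes. With the replicate block edgeR called 1, HLIP (log2 fold change 1.13, standard error 0.14, adjusted p = 0.0263), beside 0.0689% of all unigenes. DESeq2 with the block called HLIP and BBX20, beside 0.234% of the unigenes it tested. Nothing is read from these counts, since the study picked the list for its difference in these libraries. DESeq2 without the block and limma voom called 0 of the 5.

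HY5 (Cluster-4806.35919) had 7.50, 19.0 and 14.1 CPM in sulcus and 76.1, 20.1 and 22.5 in culm. Its culm level was set apart by culm replicate 1, and its pair ratios were 10.1, 1.05 and 1.59. BBX21 (Cluster-4806.11076) had 0.366, 0.412 and 0.903 CPM in sulcus and 2.63, 1.20 and 0.949 in culm, with its tissues only just apart. BBX20 (Cluster-4806.11075) had 11.4, 8.08 and 5.02 CPM in sulcus and 33.7, 15.6 and 8.37 in culm. Its tissues overlapped, since both fell from replicate 1 to 3, but its pair ratios were 2.95, 1.92 and 1.66. PHOT2 (Cluster-4806.12331) had 9.997, 19.0 and 21.8 CPM in sulcus and 44.9, 23.2 and 35.01 in culm. HLIP (Cluster-4806.7367) had 19.99, 13.3 and 23.4 CPM in sulcus and 57.5, 25.4 and 44.9 in culm, with pair ratios of 2.87, 1.90 and 1.92. Like those of BBX21, the tissues of HY5, PHOT2 and HLIP did not overlap, as in 2.46% of all unigenes with culm higher. Their lowest culm values stood little above their highest sulcus values. These were 20.1 against 19.0 CPM for HY5, 23.2 against 21.8 for PHOT2 and 25.4 against 23.4 for HLIP. Each of the 5 had its highest culm value and its largest pair ratio in replicate 1, as the FRS5-like unigene did. The smallest pair ratios of the 5 lay between 1.04 and 1.90, against 10.3 for the FRS5-like unigene. Culm libraries differed by 1.93 to 4.03 times among themselves in the 5, and by 1.47 times in the FRS5-like unigene. The FRS5-like unigene ranked 1 by the smallest pair ratio, so lower values in any other list were fixed beforehand. A low culm library would have lowered that rank, so its spread in culm is tied to it too. No test was made of the difference between these unigenes.

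**Figure D5:**
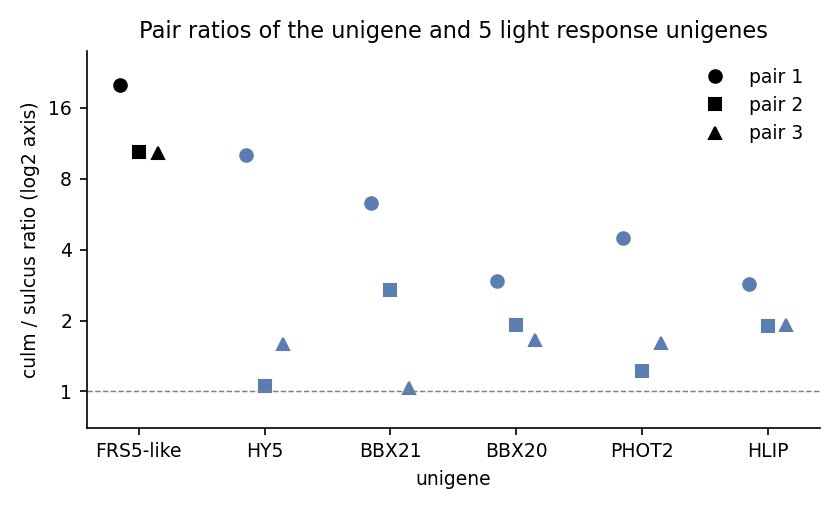
Ratio of culm to sulcus CPM within each same-numbered pair (vertical axis, log2 scale, 1 read added to each count) for the FRS5-like unigene in black and the 5 light response unigenes in blue (horizontal axis). The FRS5-like unigene lies at 10.3 or above in every pair, and the 5 others fall to between 1.04 and 1.90 in their lowest pair. Its lowest pair was the highest of all unigenes kept, so any others would lie below it.

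Because the unigene carries a transposase domain, it was also set beside 14 other unigenes that the annotation table matches to transposons, retrotransposons or integrases, again picked by the study on these libraries. Only 5 of the 14 passed the filter, 2 with a positive and 3 with a negative log2 fold change. Of the 9 that did not pass, 3 had the higher mean CPM in culm and 6 in sulcus. The log2 fold changes of the 5 that passed ran from −1.79 to 2.21 with a median of −1.55. Of these, edgeR called 0 of 5 with or without the replicate block, as did DESeq2 and limma voom. Without adjustment for multiple tests, all 5 had a p under 0.05 by edgeR and at least a doubling or halving. Over all unigenes the shares were 0.338% higher and 0.26% lower in culm. The study had picked the 5 for their difference in these libraries, so these p-values are no evidence for it. The highest log2 fold change was that of Cluster-4806.41920, matched to a retrotransposon protein of rice. It had 6, 3 and 4 reads in sulcus and 36, 15 and 18 in culm, so it passed the filter only through the culm. It ranked 7 by the smallest pair ratio (3.13). Cluster-4806.29702, named after its values were seen because it is the only other one matched to the Mutator class, had 0, 1 and 6.15 reads in sulcus and 13, 10.3 and 12 in culm and did not pass the filter.

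The first part of the identifier, a super-cluster from the clustering of contigs, is shared by 70.8% of all unigenes. No source used here states what neighbouring numbers have in common. Of the unigenes numbered within 5 of this one, 4 passed the filter. Their log2 fold changes were 0.16 (standard error 0.26) for Cluster-4806.42069, 0.74 (0.44) for Cluster-4806.42076, 1.77 (0.84) for Cluster-4806.42077 and 0.44 (0.26) for Cluster-4806.42078. Each had an adjusted p of 0.99998 from edgeR, and of 0.308 to 0.791 from edgeR with the replicate block. Cluster-4806.42077, matched to a tonoplast dicarboxylate transporter, had 31.0, 52.2 and 14.4 CPM in sulcus and 221.2, 86.4 and 22.5 in culm. Its culm level varied 9.84 times between replicates, and none of the 4 had the pattern of the FRS5-like unigene.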

How the data were processed

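Total RNA of sulcus and culm, 3 libraries each, was sequenced as paired-end reads. The authors assembled the filtered reads with Trinity and clustered contigs with Corset, and they deposited estimated counts per unigene, neither normalized nor filtered. Which program counted the reads is not stated in those sources. From 10.7% to 12.5% of each library's values had a fractional part. The study calls the replicates biological and, for its qRT-PCR, ties the numbers to repeats of bamboos. For these libraries no label states what a number marks, so the pairing was taken from the values (correlation of deviations from tissue means 0.713, 0.620 and 0.798 within numbers, −0.632 to −0.0750 across). Deviations from a tissue mean cancel out within the tissue, so negative values across follow in part from positive ones within.

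Counts were rounded for the tests. The filterByExpr function (minimum count 10) kept 31936 of 63776 unigenes, which were scaled by TMM and tested in R 4.3.3 with the quasi-likelihood test of edgeR 4.0.16 and Benjamini-Hochberg adjustment, with DESeq2 1.42.0 and limma 3.58.1 voom as alternatives. The standard error is the log2 fold change divided by the square root of F. CPM, ratios, ranks and distances used the counts as deposited and column sums. The distance between profiles used log2 CPM with 1 read added to each count. The tests and the ranking were tried on simulated counts. Named unigenes were the FRS5-like one, the 5 nearest and 3 nearest opposite profiles, the unigenes ranked next to it, the light response list, called members of the other lists and kept unigenes within 5 of its number. The unigene and the lists were chosen with earlier results of these data known. Levels of different unigenes were not compared, since no lengths were used. No sequence of the unigene was at hand.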

Additional observations from a re-analysis of the deposited data

How the results depend on the processing

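The log2 fold change of the FRS5-like unigene kept its direction in every alternative fit and moved by less than the SD within tissues (0.34 on the log2 scale). It was 3.75 to 4.07 with 1 library left out and 3.801 to 3.95 under the replicate block, other scalings, other filters, DESeq2 and limma voom. Its rank stayed 1 with 0.5 or 3 reads added, TMM-scaled totals, all unigenes, a minimum count of 30 and the lowest culm over the highest sulcus value, and lay between 1 and 3 with 1 pair left out. The count of unigenes called higher in culm was 0 by edgeR, 22 with the replicate block, 7 by DESeq2 and 65 by DESeq2 with the block. The count called lower was 0 by edgeR, 19 with the block, 2 without a filter, 16 by DESeq2 and 30 by DESeq2 with the block. Both stayed at 0 to 0 with each library left out. Of the light response list, 1 was called with the block (0.0689% of all unigenes) and 2 by DESeq2 with the block (0.234% of those it tested). Of the 12 on the photosynthesis list, edgeR with the block called 5 lower, beside 0.0595% of all unigenes. DESeq2 called 6 lower and DESeq2 with the block 7, beside 0.0293% and 0.108% of those each tested. The study picked both lists on these libraries, so nothing is read from these counts. By Pearson's r in place of the distance, 0 of the 5 nearest unigenes remained, since r ignores the size of a change. With r, Cluster-4806.26679 came first (0.994), with 6, 9.13 and 8 reads in sulcus and 17, 16 and 19 in culm. The share of unigenes with a lower sulcus coefficient of variation was 11.18% with a window of 2 times and 11.6% over the whole table. The spread comparisons over other windows and over the whole table, and the list counts under other fits, were added after the data were seen. The sulcus level rests on 14 reads in all, so depth limits any statement on differences between sulcus libraries.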
